A study of Drosophila melanogaster with 3 samples.

Results

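Binding of the transcription factor CrebB was examined in introns a short way from gene starts, in whole Drosophila melanogaster embryos. Peaks came from chromatin immunoprecipitation with sequencing (ChIP-seq) in 3 biological replicates of 1 group: pooled male and female embryos, 0 to 24 hours old, from 1 transgenic line that stably carries CrebB with GFP at its C-terminal end. There was no second condition, so the comparisons set peaks against other peaks or against neighbouring sequence. A description field calls these libraries input controls, while the antibody and assay labels give CrebB ChIP, and the latter was followed. Embryos of all stages were pooled whole, so the cells in which a site was bound cannot be told apart. Read depth is unknown, because the deposited lists give peaks and no read numbers.

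A peak was counted as intronic near a start site when its summit lay over 500 and up to 2000 bp from the nearest start of a protein-coding gene (transcription start site, TSS), inside a protein-coding transcript, and in no untranslated region or coding exon. Of the 3915 optimal peaks, the authors' list past their reproducibility threshold, 521 met this rule (13.3%, 95% Wilson interval 12.3% to 14.4%). For comparison, 2135 optimal peaks had the summit within 500 bp of a TSS (promoter peaks) and 719 were intronic and over 2000 bp from one (deep intronic peaks). A background of 3326 peaks met the same position rule in the pooled list of 30000 peaks and overlapped no optimal peak. The pooled list, cut after its 3915 strongest peaks, equals the optimal list, so signal separates it from this background by construction. Signal is the authors' own value per peak and has no stated scale. It is used here as a rank, with 1 the highest.

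CrebB is the fly member of the CREB family, basic leucine zipper proteins that bind the cAMP response element (CRE) and activate transcription after phosphorylation by protein kinase A. The family is known for roles in memory, in the circadian clock and in metabolism. Introns close to a gene's start, above all the first one, often hold enhancers and alternative promoters in flies. A peak shows that CrebB was recovered with the DNA, directly or through other proteins.

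The sequences below show the strongest summits and matches to the palindromic CRE and to GCACAGTGG. All are 5′ to 3′ from the RefSeq copy of dm6, with 1-based positions. The first set is the plus strand at the summits of the 4 intronic peaks of highest signal and of the stronger peak at the CrebB gene. The summit base is in capitals.
CG11050, chr2L:6612693-6612722: cttaaaattaatacaAgattagattttgta
ush, chr2L:481081-481110: aaaaagaaattttatAtttgtcgttactaa
Lk6, chr3R:11761029-11761058: acagtggcacataaaCtaaacgtatttcac
CG9663, chr2L:3302160-3302189: atctgaagacatgcgGgcatagtaaacaca
CrebB, chrX:18367308-18367337: atctgtatgctatgtTtttattaacgtttc
The next set holds every intronic peak near a start site that had the palindromic CRE within 100 bp of its summit, on the plus strand, with the CRE in capitals.
Dhc64C, chr3L:4824798-4824827: atcatatgtgcTGACGTCAtgcgcagaaac
Rip11, chrX:18646191-18646220: ctcattcgccgTGACGTCAacggctctggg
CG12065, chrX:8575017-8575046: ttttgacgctcTGACGTCAgctggatacat
Csk, chr3R:11649045-11649074: gcgcctaggtgTGACGTCAgcgaccgaaaa
The last set shows examples of GCACAGTGG, in capitals, from the 28 intronic peaks near a start site with it within 100 bp of the summit. The peaks shown, at ranks 26 to 1219, are among the stronger of the 28, whose median rank was 2043. Values for this sequence are given with the motifs. The strand of each is in brackets, and kis and hwt each had a pair of matches.
Trl, chr3L:14759387-14759416 (plus): tgcaaaccaaGCACAGTGGgatacaaaaca
prage, chrX:1830830-1830859 (minus): ggtcgcgatcGCACAGTGGgtgtaaaaatg
Csk, chr3R:11649715-11649744 (minus): ttttaaaagcGCACAGTGGtcacacgatac
kis, chr2L:223462-223491 (plus): acgagcacacGCACAGTGGagtgtccgaga
kis, chr2L:223602-223631 (minus): acttaagtgtGCACAGTGGagcgaatcgaa
hwt, chrX:12567762-12567791 (plus): ctgtctctctGCACAGTGGgttactttggc
hwt, chrX:12567931-12567960 (minus): tctctgacttGCACAGTGGgtgttattttt

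The 2 peaks of highest signal in the whole optimal list were intronic peaks of this kind. Such peaks held 4 of its first 25 ranks. In its first 100 ranks there were 17 of them and 63 promoter peaks. The first rank belonged to a peak in an intron of CG11050 (chr2L:6612370-6612919, signal 3466.1), which ranked 1, 1 and 2 in the lists of replicates 1, 2 and 3. Its summit lay 1021 bp downstream of the TSS of CG11050, in a later intron whose shortest annotated form is 140 bp, so the peak of 550 bp reached beyond that intron. The second rank belonged to a peak in the first intron of ush (chr2L:480909-481286, signal 2962.3), with ranks 2, 3 and 1. The gene ush encodes a zinc-finger cofactor of GATA factors, and the nearest TSS, 1408 bp away, was that of another gene, cbt, a zinc-finger transcription factor. Both peaks were in the first 3 ranks of every replicate.

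Lk6 encodes a protein kinase of the Mnk family that phosphorylates the translation factor eIF4E. Its first intron held the next intronic peak near a start site (chr3R:11760877-11761273, signal 2183.1), at rank 8 of the optimal list. This peak ranked 8, 8 and 12 in the replicates. CG9663 followed (1858.1, ranks 17, 12 and 30). Trl, which encodes the GAGA factor of open chromatin, had a peak of signal 1538.7 in a later intron (ranks 36, 29 and 16). The peak shared by Hyls1 and chif, an activator of the replication kinase Cdc7, had a signal of 1531.3 (ranks 21, 28 and 34). Each of these peaks stood in the first 36 ranks of every replicate.

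CrebB itself hosted 2 such peaks, which all 3 replicates supported. The stronger, 762 bp downstream of the nearest TSS of CrebB, had a signal of 998.1 and ranked 85, 70 and 83. The weaker (chrX:18368140-18368363, signal 478.3, 1692 bp downstream) ranked 268, 423 and 535. Both lay in an intron that is the first one in some CrebB transcripts and a later one in others, and no palindromic CRE was found within 100 bp of either summit. The line carries a CrebB transgene, and its part in the signal at this gene was not tested.

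The other named peaks had signals from 752.9 to 1535.8. NFAT, the fly member of the NFAT family of transcription factors, had a peak of signal 1110.9 (ranks 72, 37 and 82). The peak in for, a cGMP-dependent protein kinase, had 1087.9 (ranks 39, 53 and 147), and that in norpA, the phospholipase C of phototransduction, had 1078.6 (ranks 44, 55 and 127). KCNQ, a voltage-gated potassium channel gene, had a peak of 801.0 (ranks 144, 97 and 236), whose nearest TSS was that of mlt. Replicate 3 put for, norpA and KCNQ lower than the other replicates did. The peak shared by HmgD and HmgZ, which encode HMG-box proteins, had 1019.8 (ranks 146, 79 and 38). Next were wde, a cofactor of the histone methyltransferase Eggless (940.1, ranks 90, 112 and 81), and simj, a NuRD complex subunit (755.7, ranks 160, 187 and 132). The remaining peaks of the 25 were in CG32772 (1535.8), CG3726 (1167.3), CG9837 (1112.5 and 824.6), CG9135 (1052.3), Reph (929.6), CG4496 (881.3), SCaMC, a mitochondrial carrier gene (869.0), CG31635 (855.9) and prage (760.4). Of the 25 strongest intronic peaks that all 3 replicates supported, the weakest was in CG42327 (752.9, rank 160).

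**Figure D1:**
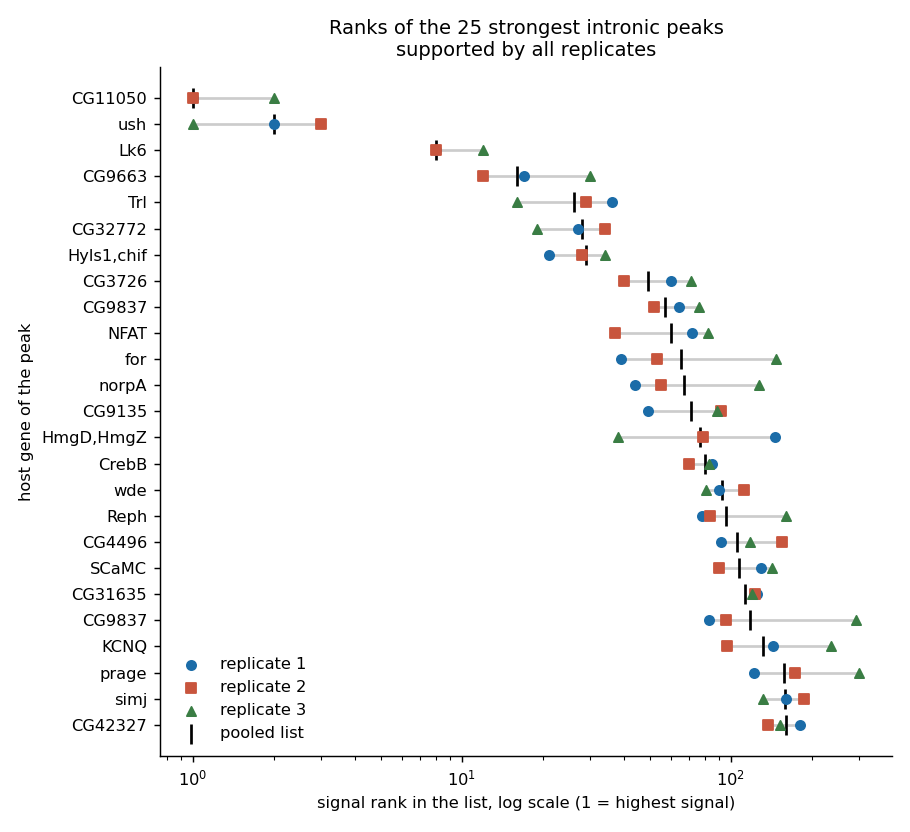
Signal rank (log scale, 1 is the highest) of the 25 intronic peaks near a start site with the highest signal among those supported by all 3 replicates, one row per peak, named by host gene. Points are the 3 replicate lists, the bar is the pooled list, and the grey line spans the replicates; CG11050 and ush hold ranks 1 to 3 in every list, and replicate 3 ranks prage lowest, at 300.

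Over the whole optimal list, intronic peaks near a start site held 17 of the first 100 ranks (17.0%, Wilson interval 10.9% to 25.5%) and 13.3% of all ranks. Their signals ran from 151.9 to 3466.1 with a median of 224.4, and their mean rank was 1869 ± 1176 (SD over 521 peaks). Deep intronic peaks had a mean rank of 2033 ± 1092, a difference of -163.9 ranks (permutation test, two-sided, 100000 resamples, adjusted p = 0.0230 over 2 comparisons). Promoter peaks had a mean rank of 1941 ± 1131, and the difference of -71.7 ranks did not pass (permutation test, adjusted p = 0.197). The difference from deep intronic peaks did not pass on the median (1831 against 1994, permutation test, adjusted p = 0.207), and it turned with the ranks of replicate 3 (intronic peaks near a start site 57.5 ranks weaker, permutation test, adjusted p = 0.730). Peaks are not biological replicates, so these p-values describe the lists.

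Recurrence between replicates was not shown to differ from that of other optimal peaks at the main settings. A replicate was said to support a peak when a summit within 100 bp was among its 3915 peaks of highest signal. All 3 replicates supported 270 of the 521 peaks (51.8%, Wilson interval 47.5% to 56.1%), and in the whole optimal list the share was 50.04%. A further 158 (30.3%) had 2 supporting replicates, 83 (15.9%) had 1 and 10 (1.92%) had none. The share with full support was 51.7% in deep intronic peaks (difference 0.0849 percentage points, 95% interval -5.54 to 5.70, Fisher's exact test, adjusted p = 1). In promoter peaks it was 49.3% (difference 2.55 points, interval -2.23 to 7.31, Fisher's exact test, adjusted p = 0.610). The optimal list was derived from these replicate lists, so recurrence in them is no independent test. The comparison depended on the settings. With the first 1957 ranks of each replicate the share stood 7.95 points above deep intronic peaks (Fisher's exact test, adjusted p = 0.00559) and 5.15 points above promoter peaks (0.0240). Against promoter peaks it also passed with summits within 50 bp (5.47 points, Fisher's exact test, adjusted p = 0.0446) and with the first 7830 ranks (5.78 points, 0.0112).

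Replicates 1, 2 and 3 supported 78.7%, 80.2% and 73.1% of the 521 peaks (77.4% ± 3.74, SD, n = 3). Their full lists held a summit within 100 bp for 96.4%, 96.0% and 94.4%. Among the 158 peaks with 2 supporting replicates, replicate 3 was the missing one for 71, replicate 1 for 48 and replicate 2 for 39. Spearman's rho of the ranks, across peaks with a summit in both full lists, was 0.763 for replicates 1 and 2 (485 peaks), 0.629 for replicates 1 and 3 (475) and 0.627 for replicates 2 and 3 (476). These correlations are across peaks that share the same libraries, and they carry no p-value.

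Support fell with rank, in these and in other optimal peaks. All 17 intronic peaks in the first 100 ranks and 63 of the next 64, up to rank 500, had full support. From there to rank 1000 it was 79 of 85, and from rank 1000 to 2000 it was 81 of 113 (71.7%, with 72.8% in other optimal peaks). In the following 1000 ranks 24 of 129 had it (18.6%, others 25.3%), and in the last 915 ranks 6 of 113 (5.31%, others 2.12%).

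**Figure D2:**
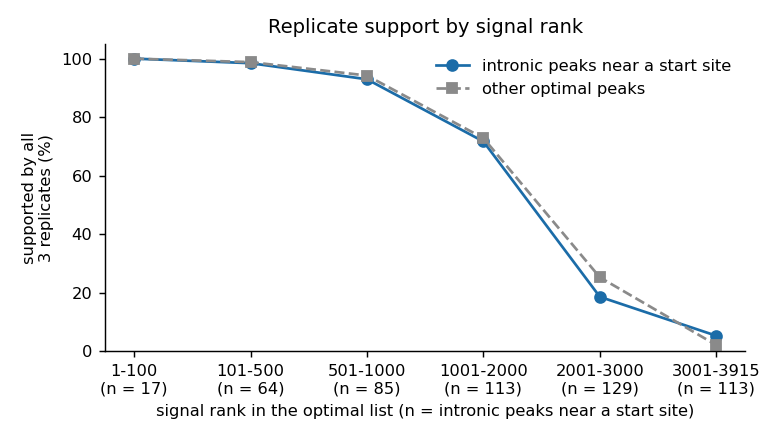
Share of peaks supported by all 3 replicates (y axis, %) by signal rank in the optimal list (x axis), for intronic peaks near a start site (circles) and all other optimal peaks (squares). Both lines fall from 100% in the first 100 ranks to 5.31% and 2.12% in the last 915. The fall follows in part from the definition of support, whose rank limit equals the length of the optimal list.

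Intron sequence under the position rule covered 10.4 Mb, which is 7.74% of chromosomes 2, 3, 4 and X. It held 50.3 optimal peaks per Mb, against 29.2 over these chromosomes as a whole, 139 within 500 bp of a TSS and 17.0 in introns beyond 2000 bp. Density was 63.9 peaks per Mb in the 250 bp nearest the lower limit, reached its lowest value of 35.8 in the fifth such interval and stood at 47.8 in the last. Background peaks fell over the same intervals from 367 to 289 per Mb. The median distance to the TSS was 1055 bp. By chromosome arm the density ran from 40.3 per Mb on 2L to 57.7 on X, and chromosome 4, with 0.118 Mb of such sequence, held 0 of the 521.

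**Figure D3:**
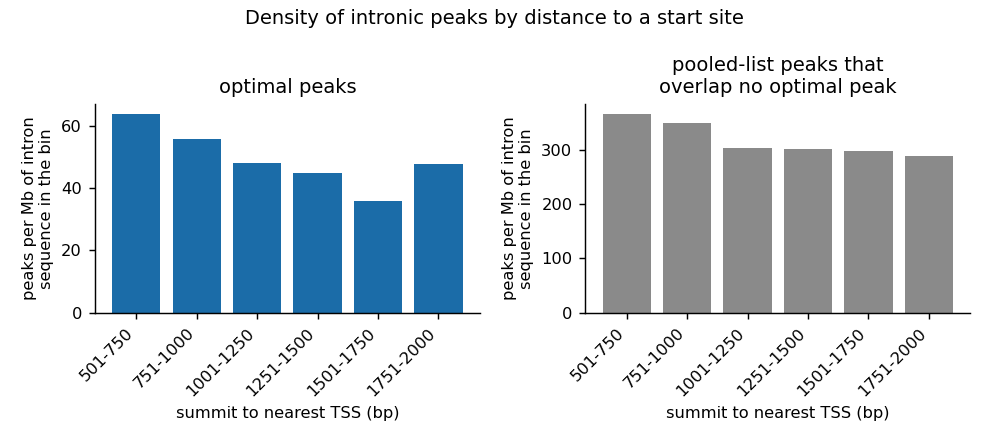
Peaks per Mb of intron sequence (y axes, from 0) by distance of the summit from the nearest protein-coding TSS in steps of 250 bp (x axes). Optimal peaks (left) go from 63.9 in the first step to 47.8 in the last, and background peaks (right) from 367 to 289.

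The peaks nearest the distance limits are given as a description. Just inside the lower limit were peaks at omd (502 bp, signal 459.4) and lola (502 bp, 226.8), and just outside it sdt (500 bp, 206.7) and PNUTS (496 bp, 225.7). Near the upper limit, CG7565 (1999 bp, 152.1) and LamC (1998 bp, 152.0) were inside, while CG9171 (2012 bp, 194.1) and Shrm (2016 bp, 259.5) were outside.

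First introns held most of the peaks. A summit was called first-intron when it lay in the first intron of every protein-coding transcript over it, later when it did so in none, and mixed otherwise. First introns had 301 of the 521 summits (57.8%, Wilson interval 53.5% to 61.9%), mixed introns 144 (27.6%) and later introns 76 (14.6%). In background peaks the shares were 51.5%, 26.8% and 21.7%. The first-intron share was 6.27 percentage points above background (95% interval 1.66 to 10.8, two-sided Fisher's exact test, p = 0.00822), and the later-intron share, compared after its values were seen, was 7.12 points below it (interval -10.2 to -3.56, Fisher's exact test, p = 0.00015224). These tests counted each peak as independent, although neighbouring peaks can lie in the same intron, so their p-values describe the lists. Of the intron sequence itself 43.6% was first-intron, 22.6% mixed and 33.8% later, which gives 66.6, 61.6 and 21.7 optimal peaks per Mb.

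In the lists of single replicates, the first-intron share was taken among peaks that met the position rule. It was 58.5% ± 1.88 for those within the 3915 highest-signal peaks and 50.1% ± 0.0836 for lower-ranked ones (SD, n = 3). The share was higher in 3 of 3 replicates. The optimal list was derived from these replicate lists, so this is no independent test. The pooled difference did not pass when the background was limited to peaks with a q-value under 0.05 (4.01 points, Fisher's exact test, p = 0.140), nor with a lower distance limit of 250 bp (3.92 points, p = 0.0654) or 1000 bp (5.72 points, p = 0.0743). The later-intron difference did not pass against that same limited background (-3.72 points, Fisher's exact test, p = 0.0703).

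**Figure D4:**
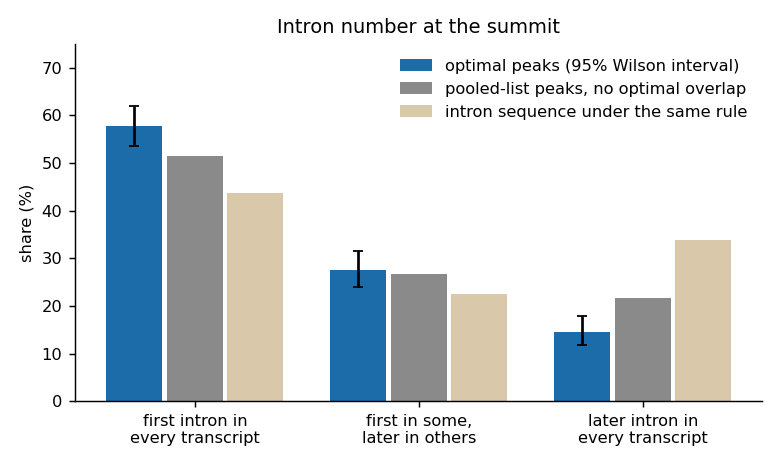
Share (y axis, %) of optimal peaks (n = 521, bars with 95% Wilson intervals), background peaks (n = 3326) and intron sequence under the same position rule in first, mixed and later introns. First introns take 57.8%, 51.5% and 43.6%, and later introns 14.6%, 21.7% and 33.8%.

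The nearest TSS belonged to the host gene for 483 of the 521 summits (92.7%). Downstream of that nearest TSS lay 338 summits (64.9%), against 66.9% of background peaks (95% interval of the difference -6.47 to 2.30 points) and 67.0% of the intron sequence. The other 183 lay upstream of an internal or neighbouring TSS: 148 of a TSS of the host and 35 of a TSS of another gene, as at ush and cbt. In 40 cases the summit lay in transcripts of more than 1 gene, and in 16 a non-coding TSS was within 500 bp. The shortest intron over the summit had a median length of 4290 bp, and in 5 cases it was shorter than the peak. The list's common width of 396 bp was shared by 358 of the 521.

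The 521 peaks had 456 host genes, 4.996% of the 9127 genes with intron sequence under the rule. A single peak was found in 382 hosts (83.8%), and 18 hosts (3.95%) had 3 or more. A peak inside transcripts of several genes was counted for each of them. CG1677 had 7, of which 3 were supported by all replicates, in 22970 bp of such sequence. The nearest TSS of each was that of another gene, which was brk, Dok, CG42780 or CBP. Tlk, the Tousled-like chromatin kinase gene, had 6 in 18201 bp, with signals from 159.9 to 543.7. NFAT had 5 in 6034 bp, with signals of 1110.9, 345.4, 298.5, 238.0 and 231.4, all in its first intron. Its strongest was supported by all replicates, and the next 2 each lacked 1 replicate.

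Another 5 peaks lay in shn, a zinc-finger factor of Dpp signalling, and 4 each in the forkhead gene CHES-1-like, CG14434 and CG32264. The hosts with 3 were HmgD, HmgZ, Tpr2, hiw, CG42258, Sin3A, Irk1, CG46310, tna, kay and CG10365. The 3 peaks of Irk1 and of CG46310 were the same ones, and HmgD and HmgZ also had peaks in common. Among these hiw encodes an E3 ubiquitin ligase of synapse growth, Sin3A a histone deacetylase corepressor and kay the Fos subunit of AP-1. For the peaks in hiw the nearest TSS was that of be or CG5541. The peaks of kay had signals of 277.5, 232.5 and 224.4, and replicate 3 held no summit within 100 bp of the last. Neighbouring peaks share sequence: 14 pairs of the 521 overlapped, and 138 (26.5%) had another optimal summit within 1000 bp.

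Host genes often carried a promoter peak too. Of the 456 hosts, 231 (50.7%, Wilson interval 46.1% to 55.2%) had an optimal peak within 500 bp of one of their TSSs, against 21.2% of the other genes with such intron sequence (interval 20.3% to 22.0%). Hosts had more of that sequence, with a median of 3178 bp against 351 bp. Among genes with up to 1000 bp the shares were 45.7% of hosts and 19.7% of others, and among those with over 6000 bp they were 60.8% and 29.8%. The 285 peaks in a gene with a promoter peak had a median rank of 1721, and all 3 replicates supported 56.1% of them. The 236 in other genes had a median rank of 2007 and full support in 46.6%. These are descriptions of gene and peak counts with no test. A peak near any TSS of a gene counted, and numbers of TSSs per gene were not compared.

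Lists of functional groups were counted against the 4.996% of genes that were hosts and the 50.9 peaks per Mb over all of these genes, without a test. In the cAMP and CREB list, 4 of 34 genes were hosts, with 32.5 peaks per Mb. Beside both peaks of CrebB, these were Sik3 (233.7, ranks 2159, 1687 and 1537) and Sik2 (191.2, ranks 3243, 2505 and 3041), kinases of the salt-inducible family that phosphorylate CREB coactivators. The fifth peak was in Akap200, an anchor of protein kinase A (190.7, ranks 1399, 7767 and 4363). Support by all replicates held for the peaks in CrebB, Sik3 and Sik2, and replicate 1 alone supported that in Akap200. The nearest TSS of the Sik3 peak was that of CG15071.

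Polycomb and trithorax group genes had 5 hosts of 29 and 133 peaks per Mb. Their strongest peaks were in Trl (1538.7), in ph-p, a subunit of Polycomb repressive complex 1 (394.0, ranks 732, 456 and 731), and in kis, a chromodomain remodeller (275.3, ranks 1395, 2347 and 1014). Adhesion and cytoskeleton genes had 10 hosts of 41 and 83.8 peaks per Mb. Here the strongest were in cno, the afadin of adherens junctions (701.8, ranks 139, 160 and 267), Moe, which links actin to the membrane (600.7, ranks 215, 270 and 333), and tsr, the actin-severing cofilin (565.7, ranks 264, 209 and 602). All 6 of these peaks were supported by all replicates.

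Signalling genes had 7 hosts of 52 and 59.8 peaks per Mb, led by the insulin receptor gene InR (546.1, ranks 344, 320 and 284), the Dpp effector Mad (444.1, ranks 340, 369 and 1150) and the FGF ligand ths (276.7, ranks 1804, 747 and 1987). InR was also the single host of 21 insulin, TOR and growth genes. Neuronal genes had 7 hosts of 51 and 31.4 per Mb, led by the RNA-binding protein gene mub (626.5), the netrin receptor fra (423.9) and the netrin NetB (341.2). The nearest TSS was that of CG33752 for the fra peak and of hog for the NetB peak. Nuclear receptor and ecdysone genes had 3 of 22 (31.2 per Mb), which were Hr4 (188.9), br (181.3) and tai (159.3). The br peak had a TSS of Mur2B as its nearest. Clock genes had 2 of 14 (46.7 per Mb), the kinases sgg (239.5) and dco (183.4).

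Patterning transcription factors had 2 hosts of 57 and 23.3 peaks per Mb. These were zfh1, a zinc-finger and homeodomain repressor (321.5, ranks 1099, 832 and 910), and the Hox gene Abd-B with 2 weak peaks (173.5 and 152.3). Cytosolic ribosomal protein genes had 0 hosts of 23, with 0.0091 Mb of such sequence in all, while 35 of the 40 listed genes (87.5%) had a promoter peak, against 2604 of all 13945 protein-coding genes (18.7%). Counts this small leave wide margins, and no list was shown to differ from the rest.

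Motifs were searched on both strands within 100 bp of each summit and of a distant point 1000 bp further from the nearest TSS on the same side. For the 338 summits downstream of that TSS the distant point lay further along the gene, and for the 183 upstream of it further upstream. The distant point was not required to lie in an intron. Its window could hold exon or other sequence, in the motif and 8-mer tests alike. Of 17 motifs, 1 passed (5.88%), and it was CACAGTG, a heptamer taken from an earlier 8-mer search of these same peaks, so its passing is not independent evidence. It lay at 51 summits (9.79%, Wilson interval 7.52% to 12.6%) and at 21 of the distant points (4.03%; exact McNemar test, two-sided, adjusted p = 0.00488). Background peaks had it at 4.06%, promoter peaks at 5.53% and deep intronic peaks at 6.95%. In the lists of single replicates the share was 7.68% ± 0.818 at summits and 3.68% ± 0.878 at distant points (SD, n = 3). The difference was 5.76 points, and the call was lost with windows of 50 bp (2.30 points, exact test, adjusted p = 0.527). It was also lost in sets of fewer peaks: 275 in the first 1957 ranks of the optimal list (6.18 points, exact test, adjusted p = 0.0566) and 309 without replicate 2 (4.85 points, 0.273). Taken on their own, after the values were seen, the 338 downstream summits gave 4.14 points (exact test, adjusted p = 0.285) and the 183 upstream summits 8.74 points (0.0632). Across all alternatives the adjusted p ran from 4.25e-06 to 0.669 in these exact tests. The median distance of the nearest match from the summit was 59 bp, and in 22 of the 51 it was at most 50 bp. The window reached 100 bp to either side, and centring on the summit was not tested.

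The longer form GCACAGTGG, chosen after the matches were seen and given without a test, lay at 28 of the 521 summits (5.37%). It was at 0.768% of the distant points and at 0.842% of background, 1.92% of promoter and 2.92% of deep intronic peaks. In single replicates it was 3.50% ± 0.409 at summits and 1.12% ± 0.324 at distant points (SD, n = 3). Of the 28 peaks, 12 had full support and 16 lay in first introns, and their ranks ran from 26 (Trl) to 3807 with a median of 2043. The peaks in kis, hwt, CG32767 and OtopLa each held 2 matches, the left one on the plus strand and the right one on the minus strand, 140, 169, 132 and 145 bp apart. Windows with 2 matches numbered 0 of 521 at distant points, 2 of 3326 at background peaks, 2 of 2135 at promoter peaks and 3 of 719 at deep intronic peaks.

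CRE sequences were not called at these summits. The palindrome TGACGTCA was at 4 summits (0.768%) and 3 distant points (0.576%; exact McNemar test, adjusted p = 1), and 0.722% of background peaks had it. The peak with it in Dhc64C, the cytoplasmic dynein heavy chain gene, had a signal of 528.9 (ranks 420, 325 and 296), and its CRE began 15 bp before the summit. In Rip11, a Rab11 effector, the peak had 252.6 (ranks 1808, 626 and 3367). In CG12065 it had 177.7 (ranks 4111, 2254 and 5041), and in Csk, a kinase that restrains Src, 176.8 (ranks 2914, 3144 and 5426). The first 2 were supported by all replicates, CG12065 by 1 and Csk by 2. The CRE core TGACG was found at 15.2% of summits against 19.6% at distant points (exact McNemar test, adjusted p = 0.446), and of the alternatives run, that with points 2000 bp further from the TSS called it, as lower.

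**Figure D5:**
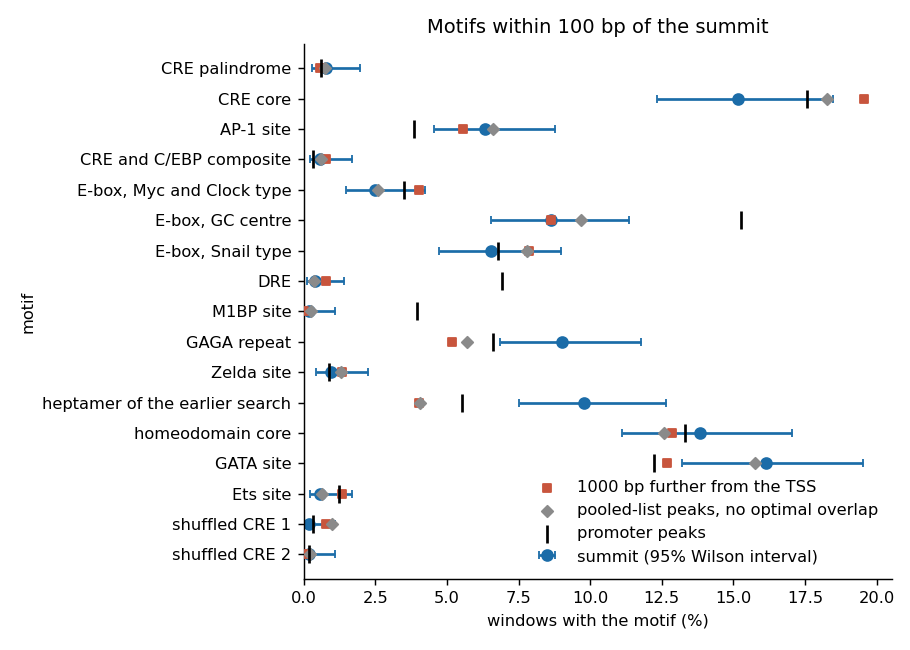
Share of windows (x axis, %) that hold each of the 17 motifs within 100 bp of the summit of intronic peaks near a start site (circles, 95% Wilson intervals), 1000 bp further from the nearest TSS (squares), at background peaks (diamonds) and at promoter peaks (bars). The heptamer found in the earlier search stands at 9.79% against 4.03% at distant points, and the DRE at 0.384% against 6.93% of promoter peaks.

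The GAGA repeat GAGAGAG, bound by the GAGA factor, was at 47 summits (9.02%) and 27 distant points (5.18%; exact McNemar test, adjusted p = 0.174). It passed within 250 bp (adjusted p = 2.26e-10, exact test) and against points 2000 bp further from the TSS (0.000995). Against background peaks, of which 5.68% had it, it passed narrowly (Fisher's exact test, adjusted p = 0.0484). The GATA site AGATAA (16.1% against 12.7%), the AP-1 site TGANTCA (6.33% against 5.57%), the homeodomain core TAATTA (13.8% against 12.9%) and the Zelda site CAGGTAG (0.960% against 1.34%) did not pass. The CRE and C/EBP composite TGATGCAA, the E-box CACGTG (2.50% against 4.03%), the E-box CAGCTG (8.64% in both), the E-box CACCTG (6.53% against 7.87%), the Ets site CCGGAAG, the DRE TATCGATA, the M1BP site GGTCACACT and both shuffled CRE sequences, TGCAGTCA and GTACTAGC, did not pass either. Mean GC content was 38.4% at summits, 41.7% at distant points and 41.8% in background peaks, and its part in these differences was not tested.

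The DRE and the M1BP site were rarer at these summits than in promoter peaks, and deep intronic peaks held neither. The classes were set by distance to a TSS, and promoters without a peak were not compared. The DRE, bound by the housekeeping promoter factor DREF, was at 2 intronic summits (0.384%) and 6.93% of promoter peaks (difference -6.55 points, interval -7.74 to -5.13, Fisher's exact test, adjusted p = 1.18e-10 over 34 comparisons chosen after the values were seen). The M1BP site was at 1 (0.192%) and 3.93% (Fisher's exact test, adjusted p = 3.70e-06), and the E-box CAGCTG at 8.64% and 15.3% (0.000619). CACAGTG was higher than in promoter peaks (Fisher's exact test, adjusted p = 0.00534). Against deep intronic peaks 0 of the 17 motifs passed by Fisher's exact test and 0 had an unadjusted p under 0.05; for CACAGTG the difference was 2.83 points (interval -0.252 to 6.13, adjusted p = 0.297).

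Among all 32896 8-mers merged with their reverse complements, 0 (0%) passed by the exact McNemar test, with 562 at an unadjusted p under 0.05. The smallest p belonged to CACTGTGC, the reverse complement of the longer form's first 8 letters, at 38 summits and 7 distant points (adjusted p = 0.103, exact test). It was followed by CACAGTGG (33 against 6), AATAAATA (69 against 31), CTGTGCAC (15 against 0), GGTAAATA (21 against 2), GCAAACAC (23 against 3), ATTAAAAT (35 against 9), CCACTGTA (23 against 4) and TATTTACA (40 against 13). Of the first 10, TGCCCAAA was rarer at summits (0 against 13). With windows of 250 bp 6 8-mers passed, led by GAGAGAGC (64 against 15, exact test, adjusted p = 8.66e-05). Of the 8 motifs at 20 or more summits, 0 passed in a comparison of signal rank (permutation tests, two-sided, 100000 resamples, all adjusted p = 0.942, 0 with an unadjusted p under 0.05), and peaks with CACAGTG had a mean rank of 1942 ± 1166 against 1861 without it.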

How the data were processed

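ChIP-seq peak lists on assembly dm6 were analysed for 3 biological replicates of 1 group, numbered as in the labels. Per the text files deposited beside the lists, peaks were called by the authors on each replicate and on the 3 together against 1 control alignment, and they derived the optimal list from these by an IDR threshold. Aligner and peak caller: not given in the sources used here. Each deposited peak has a signal value with no stated scale, used only for ranks, and the authors' −log10 q-value, used here only for 1 alternative background. Replicate and pooled lists are 30000 peaks long.

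TSSs (19607, of 13945 protein-coding genes) and introns came from Ensembl release 115 and sequence from the RefSeq copy of the same assembly; 0 peak ends passed a chromosome's length. Python 3.11.15 with numpy 2.4.6, pandas 2.3.3 and scipy 1.17.1 was used. Adjusted p-values are Benjamini-Hochberg values with a threshold of 0.05, and difference intervals are Newcombe's. Intervals cover the counting of peaks only. The tests were checked on simulated windows, counts and values drawn independently, which did not include the overlap of neighbouring peaks. To leave out a replicate, optimal peaks supported by both others were kept.

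Genes named are the 25 strongest fully supported peaks, hosts in the lists (up to 3 each, all for the cAMP list), hosts with 3 or more peaks, all peaks with the palindromic CRE, the 10 leading 8-mers and the peaks nearest the limits. Members, lists and motifs were chosen with earlier results of these data known. Some list symbols were brought to their current names afterwards, and 2 had no match (E78C and calypso). Motifs against other peak classes, later introns, and downstream or upstream summits on their own were added after seeing the data.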

Additional observations from a re-analysis of the deposited data

How the results depend on the processing

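Samples could not be paired between groups, because the series holds 1 group. The McNemar tests of motifs and 8-mers paired each summit with its own distant point. The number of intronic peaks near a start site was 282 with a lower limit of 1000 bp, 275 in the first 1957 optimal ranks, 270 with support by all 3 replicates, and 309 to 341 with a replicate left out, against 521. The first-intron difference lost its call with lower limits of 250 bp (3.92 points) and 1000 bp (5.72 points) and against background peaks with a q-value under 0.05 (4.01 points), and the later-intron difference lost it against the last (-3.72 points). Full support covered 174 peaks with the first 1957 ranks of each replicate, 423 with the first 7830 and 462 with the full lists. Its difference from deep intronic peaks turned with summits within 50 bp (-0.285 points), with 7830 ranks (-0.173) and with the full lists (-3.12), ranged from -1.47 to 1.06 with a replicate left out, and passed with 1957 ranks (7.95). Its difference from promoter peaks passed with summits within 50 bp (5.47), 1957 ranks (5.15) and 7830 ranks (5.78) and turned with 50 percent reciprocal overlap (-0.153). The rank difference from deep intronic peaks lost its call on the median (-163) and turned with the ranks of replicate 3 (57.5), and that from promoter peaks passed with the ranks of replicate 2 (-461.3). Of the 17 motifs, 0 passed with windows of 50 bp and in the first 1957 optimal ranks, 2 with windows of 250 bp and against background peaks, 3 against points 2000 bp further from the TSS, 0 among summits downstream of the nearest TSS and 0 among those upstream, 0 to 1 with a replicate left out, 4 against promoter peaks and 0 against deep intronic peaks. The count of 8-mers was 6 with windows of 250 bp. The palindromic CRE was lower at summits against points 2000 bp further from the TSS (-0.576 points), in the first 1957 optimal ranks (-0.364), with full support (-0.370) and without replicate 1 or 2 (-0.314 and -0.324), on 4 or fewer summits. The GAGA repeat difference turned among summits upstream of the nearest TSS (-0.546 points). The cause of these changes was not tested, and fewer peaks entered where a subset was used. Depth is unknown, so no limit from read numbers can be given.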
